A study of Mus musculus with 20 samples.

Results

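The comparison described here was that of distal colon (DC) RNA from mice fed 5% resistant potato starch (RPS) with RNA from mice fed none. Mice were assigned by the diet code in their sample description, which placed 5 mice at 5% RPS (RS10_717, RS10_718, RS10_719, RS10_721 and RS10_724) and 5 at 0% RPS (RS10_701, RS10_703, RS10_704, RS10_707 and RS10_708), 10 of the 20 mice in the series. All were C57BL/6 animals that entered the experiment at 3 weeks of age. They ate the Total Western Diet (TWD), a rodent feed modelled on what Americans eat, for 6 weeks. Over the next 3 weeks the 0% RPS mice stayed on the TWD alone and the 5% RPS mice ate the TWD with RPS added, so the TWD was common to both groups. A short piece of whole colon wall near the anus was taken from each mouse, and mRNA was sequenced from 1 library per mouse. For mouse RS10_717 a second label, that of treatment, gives 2% RPS in place of 5%, and mouse RS10_725, which is not among the 10, carries a 5% treatment label.

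RPS is starch in a granular form that largely escapes digestion in the small bowel and is fermented by bacteria of the large bowel to short-chain fatty acids. The epithelium that faces these products absorbs sodium and water, is covered by mucus from goblet cells and secretes antimicrobial proteins. It is renewed from crypt stem cells, and its cells mature as they move to the surface. Below it, resident macrophages, plasma cells and fibroblasts make up much of the lamina propria. Cytokines such as IL-22 and IL-6 act on the epithelium through STAT3, which induces its own inhibitor Socs3, while interferons induce a gene programme of their own.

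The libraries held 32.8 ± 1.35 M counts at 0% RPS and 28.3 ± 3.40 M counts at 5% RPS (SD, n = 5), and the groups did not overlap (exact two-sided permutation p = 0.00794, the smallest value such groups allow). An effect of depth cannot be told apart from one of diet here. Levels are given as CPM, which are counts divided by the TMM-scaled library size in M counts, and, where 5 values stand in a row, in ascending order of mouse number. The summed CPM of 18 colon epithelium markers was 21890 to 28140 at 0% RPS and 25900 to 31120 at 5% RPS, so markers of the labelled tissue were abundant in every mouse. Mouse RS10_721 stood apart. Of 35 pancreatic acinar genes in the table, 5 (Cela1, Klk1, Spink1, Sycn and Zg16) exceeded a mean of 100 CPM in the 0% RPS mice. The other 30 genes, which code for digestive enzymes of the pancreas and related proteins, summed to 6999 CPM in mouse RS10_721 and to 23.4 to 27.8 CPM in the other 4 mice at 5% RPS, against 23.7 to 30.1 CPM at 0% RPS. Smooth muscle markers summed to 9270 CPM in mouse RS10_721 and to 13720 to 15390 CPM in the other 4, against 11510 to 18100 CPM at 0% RPS. Results are therefore given with all 10 mice and without mouse RS10_721.

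No gene passed both thresholds (adjusted p of at most 0.05 and a fold change of at least 1.5) in edgeR's quasi-likelihood test, 0% of 17893 genes tested. The smallest adjusted p was 0.306, and 0.252 without mouse RS10_721. At an unadjusted p under 0.05, 839 genes (4.69%) were higher and 805 (4.5%) lower at 5% RPS. DESeq2, with the same thresholds, called 29 genes of 14896 with an adjusted p: 21 were upregulated (0.141%) and 8 downregulated (0.0537%). Without mouse RS10_721 DESeq2 called 26 genes of 21353, 23 upregulated (0.108%) and 3 downregulated (0.014%). These lists shared 14 genes, which are 14 of 29 and 14 of 26. Every gene said below to have risen or fallen did so in DESeq2's test and, with all 20 mice in the fit, not in edgeR's. There edgeR's adjusted p for the 29 genes lay between 0.306 and 0.325.

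Mouse RS10_721 was not the only mouse that set the number of calls. Without mouse RS10_719, DESeq2 called 7 genes, all of them among the 29, and without mice RS10_719 and RS10_721 together it called 0, with a smallest adjusted p of 0.173. In that last fit 371 genes (2.04%) were higher and 356 (1.96%) lower at an unadjusted p under 0.05 in edgeR. Leaving out mouse RS10_724, RS10_718 or RS10_704 gave 91, 54 and 105 calls, more than with all 10 mice. Leaving out mouse RS10_701, RS10_703, RS10_707, RS10_708 or RS10_717 gave 12, 13, 10, 9 and 9 calls, fewer than with all. With groups taken from the treatment label, DESeq2 called 5 genes, all among the 29 (Ang4, Retnlb, Cd68, Fcna and Pf4).

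**Figure D1:**
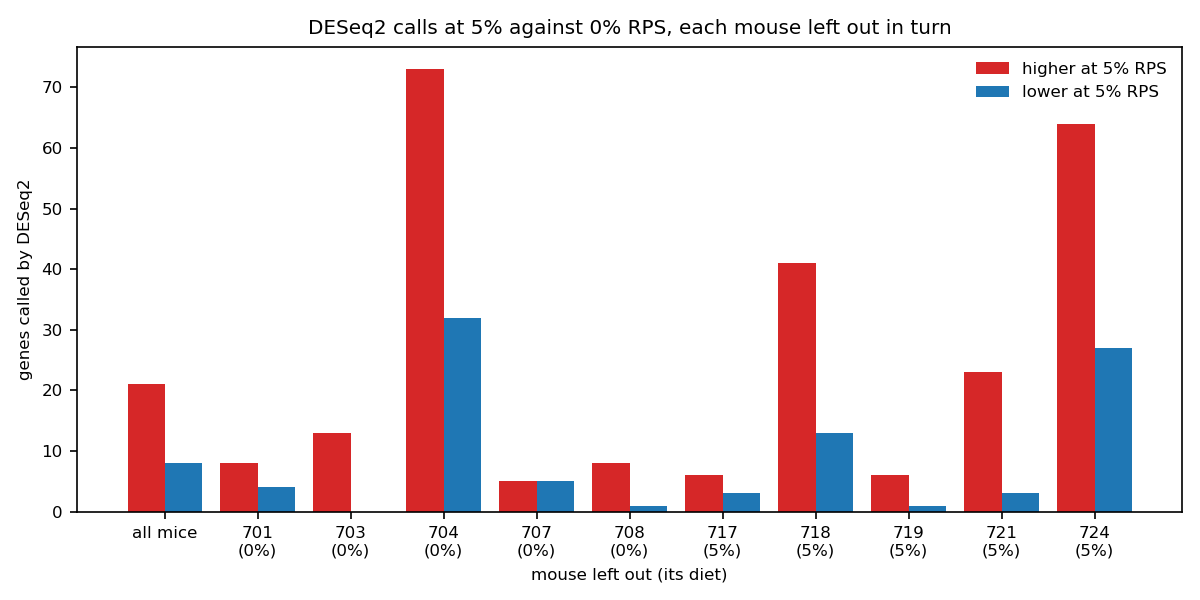
Number of genes called by DESeq2 (adjusted p of at most 0.05 and at least 1.5-fold) as higher (red) or lower (blue) at 5% RPS with all mice and with each of the 10 mice left out. The total ran from 7 without mouse RS10_719 to 105 without mouse RS10_704, and was 29 with all mice.

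Rdh9, Nrarp, Bhlha15 and Cyp2c55 were the 4 genes called with all mice, without mouse RS10_721 and without mouse RS10_719. Rdh9 and Bhlha15 were called in each of the 10 fits that left out 1 mouse, Nrarp and Cyp2c55 in 9 of 10. All 4 separated the groups completely in CPM, as did 0.464% of all tested genes upward and 0.576% downward. This rests on the same values as the calls. With groups from the treatment label none of the 4 was called, with DESeq2 adjusted p-values of 0.134 for Rdh9, 0.314 for Nrarp, 0.337 for Bhlha15 and 0.538 for Cyp2c55.

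Rdh9, a dehydrogenase of the retinol dehydrogenase family (ENSMUSG00000056148, chromosome 10, 127612255 to 127628566, GRCm39), was upregulated at 5% RPS. Its CPM was 2.13, 1.58, 3.04, 1.96 and 1.30 at 0% RPS and 6.15, 5.04, 8.46, 3.41 and 3.13 at 5% RPS. The lowest mouse at 5% RPS, RS10_724, lay just above the highest at 0% RPS, RS10_704. The means were 2.00 ± 0.667 CPM in the controls and 5.24 ± 2.18 CPM at 5% RPS (SD, n = 5), a DESeq2 log2 fold change of 1.39 ± 0.27 (SE) with an adjusted p of 0.00248. Without mouse RS10_721 the log2 fold change was 1.51 with a DESeq2 adjusted p of 0.000933.

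Nrarp codes for an ankyrin repeat protein that is induced by Notch signalling and limits it (ENSMUSG00000078202, chromosome 2, 25070770 to 25073351). Its CPM was 2.10, 1.96, 1.93, 2.35 and 2.53 at 0% RPS and 5.22, 4.47, 4.09, 4.28 and 4.60 at 5% RPS. The gap between the groups was wide compared with the spread within each. Mouse RS10_719 was the lowest at 5% RPS and still above each control. DESeq2 gave a log2 fold change of 1.06 ± 0.23 (SE) with an adjusted p of 0.00909, and without mouse RS10_721 the adjusted p was 0.0211. In a fit of the 10 mice alone, edgeR called this gene and no other (log2 fold change of 1.06, adjusted p = 0.047). Without mouse RS10_717 the DESeq2 adjusted p of Nrarp was 0.0571.

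Bhlha15 (Mist1) is a transcription factor of secretory cells, among them acinar cells and plasma cells (ENSMUSG00000052271, chromosome 5, 144127086 to 144131259). Its CPM was 3.09, 2.75, 3.23, 1.73 and 2.20 at 0% RPS and 6.77, 3.64, 5.45, 10.1 and 3.71 at 5% RPS. Mouse RS10_721, the library of the 10 with the acinar transcripts, was highest. The other 4 mice at 5% RPS also lay above each mouse at 0% RPS, mice RS10_718 and RS10_724 by little. DESeq2's log2 fold change of 1.20 ± 0.25 (SE) (adjusted p = 0.00657) became 0.92 without mouse RS10_721 (adjusted p = 0.0360). Of the plasma cell and immunoglobulin constant region list, 25 genes were tested. A positive log2 fold change was found for 23 of them, against 48.0% of all tested genes, and the list median was 0.34. Only Ighg1 had an unadjusted p under 0.05. Whether acinar or plasma cell content had a part in the Bhlha15 difference was not tested.

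Cyp2c55, a cytochrome P450 of colon and liver that is induced through the xenobiotic receptors (ENSMUSG00000025002, chromosome 19, 38995462 to 39031144), was the most downregulated of the 29 genes. Its CPM was 85.5, 78.5, 82.2, 61.4 and 46.9 at 0% RPS and 36.7, 31.2, 17.3, 33.4 and 32.4 at 5% RPS. Mouse RS10_719 was lowest by a clear margin, and the other 4 mice at 5% RPS lay close together below all 5 controls. By DESeq2 the log2 fold change was -1.23 ± 0.25 (SE) (adjusted p = 0.00633), and -1.27 without mouse RS10_721 (adjusted p = 0.0335). Without mouse RS10_703 the DESeq2 adjusted p was 0.0566.

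**Figure D2:**
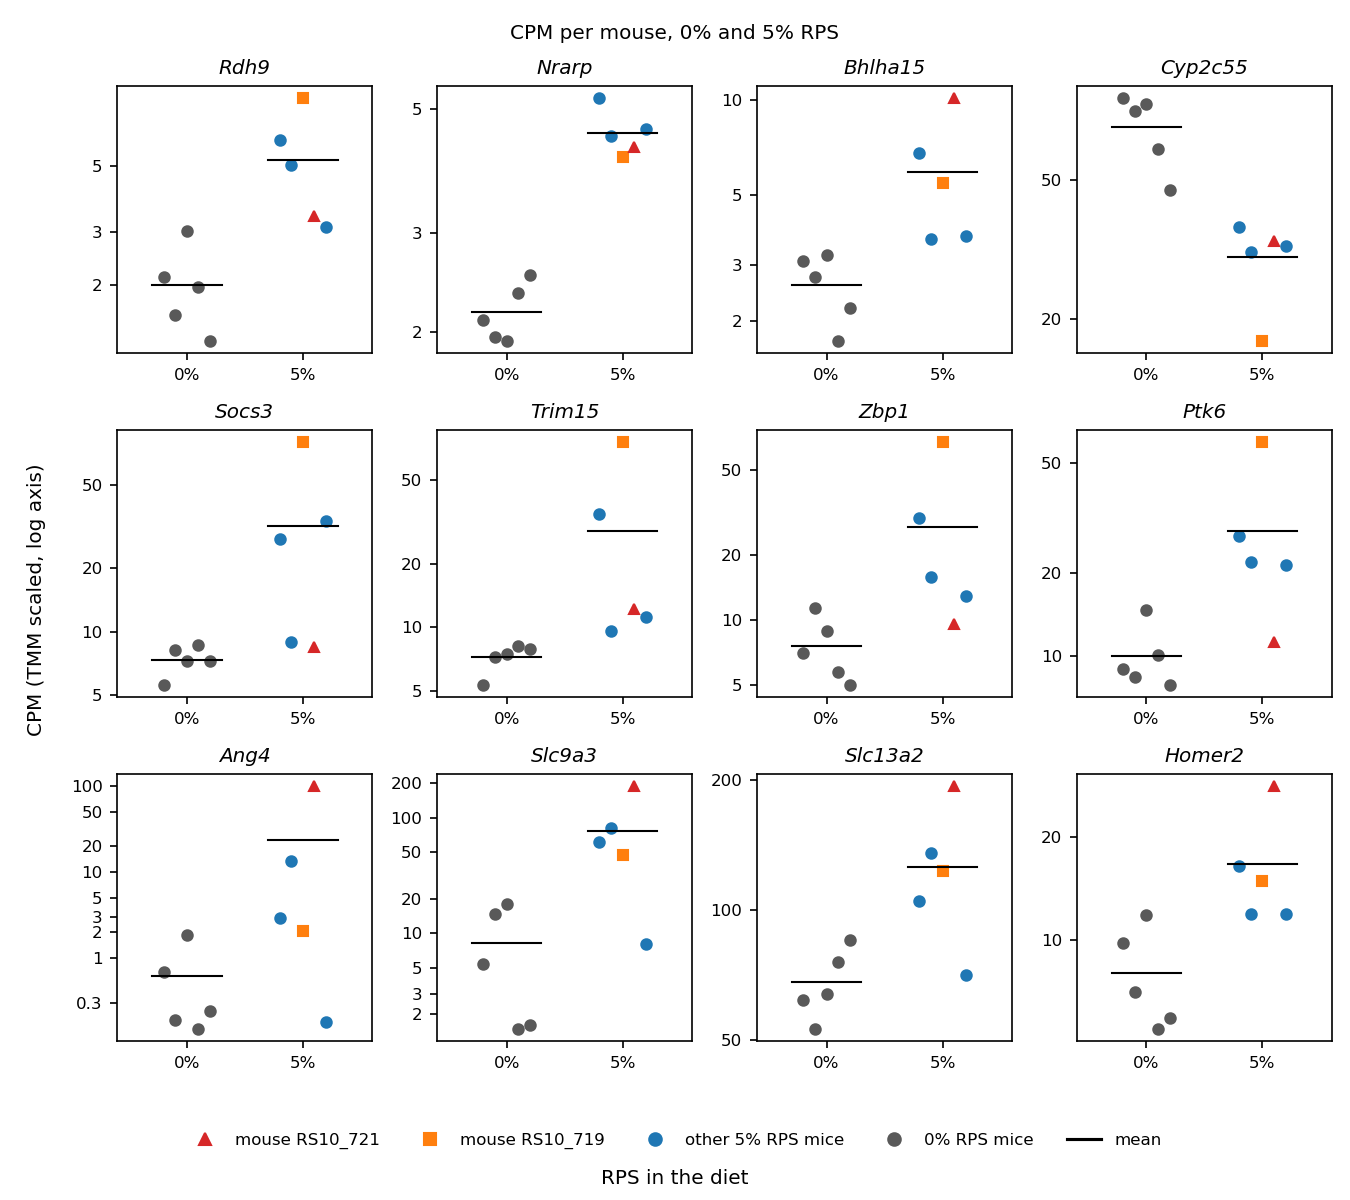
CPM (log axis) of 12 genes called by DESeq2 in each mouse at 0% and 5% RPS, with the mean as a line. Triangles are mouse RS10_721 and squares mouse RS10_719. In the top row no 5% RPS mouse overlaps the controls, in the middle row mouse RS10_719 is highest, at 59.3 to 79.5 CPM, and in the bottom row mouse RS10_721 is highest.

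Several called genes had their highest level in mouse RS10_719 and a level at or near the controls in mouse RS10_721 or mouse RS10_718. They were Socs3, Trim15, Zbp1, Ptk6 and Mfsd2a, described here, and Pak6 and Hspa12a, described further on. Socs3, the feedback inhibitor of STAT3 signalling (ENSMUSG00000053113, chromosome 11, 117856905 to 117860898), was one of them. Its CPM was 5.58, 8.16, 7.27, 8.66 and 7.29 at 0% RPS and 27.7, 8.91, 79.5, 8.48 and 33.7 at 5% RPS. Mice RS10_717, RS10_719 and RS10_724 were far above the control mean of 7.39 CPM, while mouse RS10_721 fell within the control range and mouse RS10_718 just above it. The DESeq2 log2 fold change was 2.10 ± 0.52 (SE) (adjusted p = 0.0342), 2.34 without mouse RS10_721 (adjusted p = 0.00882) and 1.41 without mouse RS10_719 (adjusted p = 0.281).

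Trim15, a RING-type ubiquitin ligase of the TRIM family (ENSMUSG00000050747, chromosome 17, 37171583 to 37178145), had a CPM of 5.30, 7.18, 7.49, 8.15 and 7.87 at 0% RPS and 34.6, 9.61, 75.6, 12.1 and 11.2 at 5% RPS. All 5 mice at 5% RPS exceeded the controls, with mouse RS10_719 far above the rest. Its DESeq2 log2 fold change was 1.99 ± 0.48 (SE) (adjusted p = 0.0244), and without mouse RS10_719 it was 1.23 (adjusted p = 0.242). For Zbp1, an interferon-inducible sensor of Z-form nucleic acids (ENSMUSG00000027514, chromosome 2, 173033815 to 173060724), CPM was 7.09, 11.4, 8.95, 5.77 and 5.00 at 0% RPS and 29.7, 15.9, 67.1, 9.60 and 12.9 at 5% RPS. Mouse RS10_721 lay within the control range and mouse RS10_724 just above it. Its DESeq2 log2 fold change was 1.82 ± 0.47 (SE) (adjusted p = 0.0406).

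Ptk6, an intracellular tyrosine kinase of differentiating intestinal epithelium (ENSMUSG00000038751, chromosome 2, 180835514 to 180844582), was also highest in mouse RS10_719. Its CPM was 8.98, 8.42, 14.6, 10.1 and 7.83 at 0% RPS and 27.2, 21.9, 59.3, 11.2 and 21.3 at 5% RPS. Only mouse RS10_721 overlapped the controls. The DESeq2 log2 fold change was 1.5 ± 0.38 (SE) with all mice (adjusted p = 0.0399) and 1.70 without mouse RS10_721 (adjusted p = 0.0143). Mfsd2a, a transporter of lysophosphatidylcholine, was at 0.567, 1.08, 1.89, 0.922 and 0.693 CPM at 0% RPS and at 7.93, 1.03, 17.4, 1.94 and 2.50 CPM at 5% RPS, so that mouse RS10_718 overlapped the controls and mouse RS10_721 barely exceeded them. Its DESeq2 log2 fold change was 2.58 ± 0.65 (SE) (adjusted p = 0.0388).

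None of these genes, Pak6 and Hspa12a included, was called without mouse RS10_719, and all were called without mouse RS10_721. Each was called in 4 of the 10 fits that left out a mouse, except Pak6, which was called in 3. The upstream sequences of Socs3 and Trim15 are shown because both hold TTCNNNGAA, the usual form of the STAT element. Whether STAT3 had a part in the level of any called gene was not tested. Ang4, described below, is the only other called gene with that motif in the RefSeq promoter table (GRCm38.p6, minus strand for all 3, capitals mark TTCNNNGAA):
Socs3, chr11:117969367-117969616: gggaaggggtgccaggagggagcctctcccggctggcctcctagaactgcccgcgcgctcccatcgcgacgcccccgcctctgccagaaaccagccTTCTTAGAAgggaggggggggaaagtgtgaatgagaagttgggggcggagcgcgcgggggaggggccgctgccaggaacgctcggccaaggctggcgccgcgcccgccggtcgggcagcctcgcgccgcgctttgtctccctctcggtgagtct
Trim15, chr17:36867211-36867460: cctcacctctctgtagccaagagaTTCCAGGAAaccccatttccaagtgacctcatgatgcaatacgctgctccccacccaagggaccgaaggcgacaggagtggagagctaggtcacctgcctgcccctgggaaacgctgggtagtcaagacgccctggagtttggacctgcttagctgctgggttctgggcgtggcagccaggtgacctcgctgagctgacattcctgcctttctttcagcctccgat
Ang4, chr14:51773591-51773840: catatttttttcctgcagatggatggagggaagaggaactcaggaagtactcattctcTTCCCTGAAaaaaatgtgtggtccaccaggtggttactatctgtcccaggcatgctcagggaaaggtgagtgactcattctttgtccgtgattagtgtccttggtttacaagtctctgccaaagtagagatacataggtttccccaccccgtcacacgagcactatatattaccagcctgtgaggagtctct

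Each run ends at the base before the annotated start site and reads 5′ to 3′ on the gene's own strand. The motif begins 154 bases before the start of Socs3, 226 before that of Trim15 and 192 before that of Ang4. The table held promoters for 23 of the 29 called genes (27 promoters, each reaching a little past the start site), and TTCNNNGAA, a palindrome that reads alike on both strands, was present for 3 genes in 4 of the 27. Of all 32851 promoters, 8.3% held it. The interferon motif AANNGAAA, searched on both strands, occurred in 5 promoters of called genes (Cd68, Cyp2c55, Iqgap2, Nrarp and Trim15) and in 23.9% of all promoters. In Trim15 it overlapped a further TTCNNNGAA downstream of a second annotated start. Promoters of Zbp1, Ptk6 and Retnlb were not in the table. These matches are a description of letters and not of binding.

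A further group was highest in mouse RS10_721, the mouse with acinar transcripts. Retnlb (RELMβ) and Ang4 are antimicrobial proteins of goblet and Paneth cells. Retnlb was at 0.0283, 0.0316, 0.186, 0 and 0.0603 CPM at 0% RPS and at 0.562, 1.92, 0.677, 23.4 and 0.0446 CPM at 5% RPS. The 0 in mouse RS10_707 allows up to 0.0893 CPM at a floor of 3 counts. Controls RS10_701, RS10_703 and RS10_708 and mouse RS10_724 at 5% RPS also lay below 3 counts for Retnlb. The size of its fold change therefore rests on few control counts. Ang4, whose counts may be shared with near-identical angiogenin genes, was at 0.680, 0.190, 1.83, 0.149 and 0.241 CPM at 0% RPS and 2.94, 13.4, 2.06, 98.7 and 0.179 CPM at 5% RPS. For both genes mouse RS10_724 was within the control range, and mouse RS10_718 was second to mouse RS10_721. DESeq2 called both with all mice, with log2 fold changes of 6.46 ± 1.26 (SE) and 5.26 ± 1.14 (SE) (adjusted p = 0.00248 and 0.0103). Neither was called without mouse RS10_721, where the log2 fold changes were 3.72 and 2.91.

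Slc9a3 (NHE3), the sodium-proton exchanger of the absorptive surface (ENSMUSG00000036123, chromosome 13, 74269360 to 74317561), rose at 5% RPS with all mice. Its CPM was 5.44, 14.8, 17.8, 1.49 and 1.63 at 0% RPS and 61.1, 81.6, 47.9, 187 and 8.08 at 5% RPS. Mice RS10_717, RS10_718, RS10_719 and RS10_721 were above each control, and mouse RS10_724 was within the control range. By DESeq2 its log2 fold change was 3.23 ± 0.72 (SE) (adjusted p = 0.0107), and without mouse RS10_721 it was 2.59 with an adjusted p of 0.129. It was called without mouse RS10_719 (adjusted p = 0.0392).

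Slc13a2, the sodium-coupled carrier of citrate and succinate, had a CPM of 62.0, 52.9, 64.0, 75.6 and 85.1 at 0% RPS and 105, 135, 123, 193 and 70.7 at 5% RPS, again with mouse RS10_721 highest and mouse RS10_724 among the controls. Its DESeq2 log2 fold change was 0.89 ± 0.21 (SE) (adjusted p = 0.0183), and 0.67 without mouse RS10_721, where it was not called (adjusted p = 0.133). Homer2, a scaffold protein of calcium signalling, was at 9.78, 7.06, 11.8, 5.47 and 5.91 CPM at 0% RPS and 16.4, 11.9, 14.8, 28.1 and 11.9 CPM at 5% RPS. The lowest mice at 5% RPS, RS10_718 and RS10_724, barely cleared mouse RS10_704. Its DESeq2 log2 fold change was 1.06 ± 0.25 (SE) (adjusted p = 0.0183). Homer2 was not called without mouse RS10_721 (DESeq2 adjusted p = 0.151) or without mouse RS10_719 (DESeq2 adjusted p = 0.0618).

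Another 4 upregulated genes lost their call without mouse RS10_721 although mouse RS10_719 was higher than mouse RS10_721. They were Sgk2, a kinase related to the glucocorticoid-induced Sgk1, Bcl3, a nuclear partner of NF-kB, Cpne2, a calcium-dependent membrane-binding protein, and Iqgap2, a scaffold of the epithelial cytoskeleton. Bcl3 ranged over 31.0 to 47.0 CPM in the controls and 47.2 to 95.7 CPM at 5% RPS, and Iqgap2 over 131 to 188 CPM in the controls and 198 to 289.9 CPM at 5% RPS, without overlap in either. Sgk2 ranged over 19.9 to 47.1 CPM in the controls and 42.4 to 88.0 CPM at 5% RPS, and Cpne2 over 19.2 to 27.1 CPM in the controls and 26.5 to 50.7 CPM at 5% RPS, each with overlap. Their DESeq2 log2 fold changes were 0.97 ± 0.22 (SE) for Sgk2, 0.99 ± 0.24 (SE) for Bcl3, 0.63 ± 0.16 (SE) for Cpne2 and 0.62 ± 0.16 (SE) for Iqgap2. Bcl3, Cpne2 and Iqgap2 also lost their call without mouse RS10_719 (DESeq2 adjusted p = 0.170, 0.278 and 0.263). Of the 10 fits that left out 1 mouse, Sgk2 was called in 5, Bcl3 in 4, Cpne2 in 3 and Iqgap2 in 2.

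**Figure D3:**
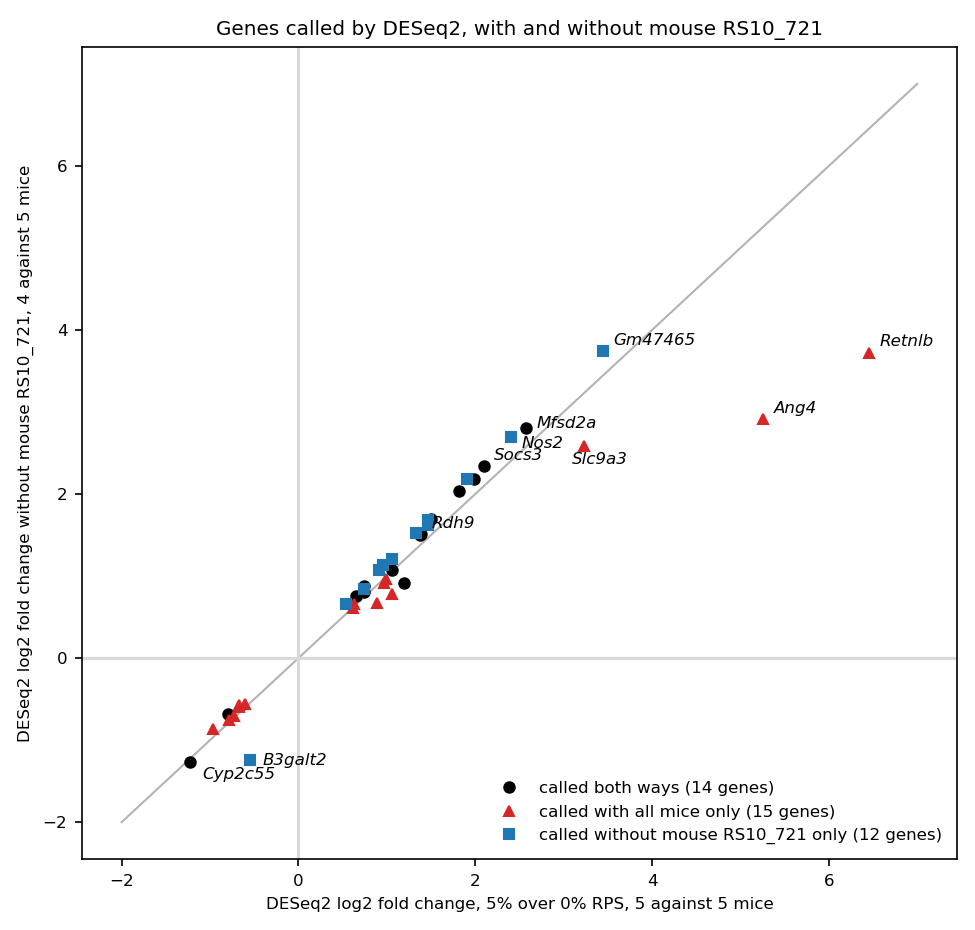
DESeq2 log2 fold change (5% over 0% RPS) of the 41 genes called with all mice or without mouse RS10_721, with all mice (x axis) and without mouse RS10_721 (y axis), with the line of equality. Retnlb and Ang4 lie far below the line, at 6.46 and 5.26 with all mice and at 3.72 and 2.91 without mouse RS10_721, and 14 genes (black circles) were called both ways.

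The remaining upregulated genes were called with and without mouse RS10_721, but not without mouse RS10_719. Of the 10 fits that left out 1 mouse, Gpr160 was called in 4 and ENSMUSG00000103428 in 3. Gpr160, an orphan receptor coupled to G proteins, ranged over 15.3 to 22.0 CPM in the controls and 20.9 to 43.0 CPM at 5% RPS and Hspa12a, a distant member of the HSP70 family, over 16.6 to 18.7 CPM in the controls and 19.2 to 41.5 CPM at 5% RPS. Hspa12a separated the groups, and its DESeq2 adjusted p was 0.0244 with all mice and 0.00382 without mouse RS10_721. Pak6, a p21-activated kinase, ranged over 2.29 to 2.83 CPM in the controls and 2.44 to 5.28 CPM at 5% RPS, with mouse RS10_721 within the control range. ENSMUSG00000103428, an identifier for which no symbol was found, ranged over 1.18 to 1.62 CPM in the controls and 2.08 to 5.07 CPM at 5% RPS and separated the groups.

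Of the 8 downregulated genes, 5 are known from tissue macrophages, though not from them alone. Cd68 codes for a lysosomal membrane protein, Mrc1 for the mannose receptor, Stab1 for a scavenger receptor, Fcna for the complement lectin ficolin A and Pf4 for the chemokine CXCL4, which platelets also carry. Cd68 was at 10.1, 13.1, 8.05, 8.87 and 17.7 CPM at 0% RPS and 8.16, 6.72, 6.26, 6.47 and 7.19 CPM at 5% RPS. Mouse RS10_708 was highest and mouse RS10_703 second, and mouse RS10_717 alone at 5% RPS overlapped the lowest control. The DESeq2 log2 fold change was -0.73 ± 0.17 (SE) (adjusted p = 0.0188).

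Pf4 was at 9.41, 11.7, 9.04, 8.42 and 12.8 CPM at 0% RPS and 7.5, 6.00, 6.05, 3.92 and 6.16 CPM at 5% RPS. The groups did not overlap, and Pf4 was the only one of the 5 that kept its call without mouse RS10_721 (DESeq2 log2 fold change of -0.68, adjusted p = 0.0439). Stab1 was at 52.2, 65.2, 39.4, 41.7 and 68.9 CPM at 0% RPS and 38.6, 33.8, 36.5, 30.9 and 36.1 CPM at 5% RPS, also without overlap. Mrc1 ranged over 18.5 to 34.7 CPM in the controls and 11.7 to 19.1 CPM at 5% RPS and Fcna over 4.08 to 10.9 CPM in the controls and 2.30 to 4.44 CPM at 5% RPS, with 1 and 2 mice at 5% RPS in the control range. The DESeq2 log2 fold changes were -0.79 ± 0.17 (SE) for Pf4, -0.60 ± 0.14 (SE) for Stab1, -0.67 ± 0.16 (SE) for Mrc1 and -0.96 ± 0.25 (SE) for Fcna. Without control RS10_703, 0 of 13 DESeq2 calls were lower, so none of the 5 genes was called. Without control RS10_708, 1 of 9 calls was lower. Of the 10 fits that left out 1 mouse, Pf4 was called in 7, Cd68 in 6, Mrc1 and Stab1 in 4 each and Fcna in 3.

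In whole tissue, fewer macrophages and less RNA of these genes per macrophage cannot be told apart. Of the list of macrophage, neutrophil and chemokine genes, 35 of 43 were tested and 10 were lower at an unadjusted p under 0.05, against 4.5% of all tested genes: Cd68, Mrc1, Itgam, C1qc, Csf1r, C1qa, Cd163, C1qb, Adgre1 and Lyz2. All 10 are known as genes of macrophages or myeloid cells. The 4 members that were higher at that threshold, against 4.69% of all tested genes, were Cxcl1, Cxcl5, Cxcl10 and Il1b, which are chemokines and a cytokine. The median over the list was 0.02, against -0.01 for all tested genes. Without mouse RS10_721, 9 members were lower and 5 higher (3.66 and 3.86% of all tested genes), and without mice RS10_719 and RS10_721, 8 and 5 (1.96 and 2.04%). Itgam separated the groups, at 3.46, 4.02, 3.23, 4.20 and 3.86 CPM at 0% RPS and 2.41, 2.42, 3.01, 2.52 and 1.92 CPM at 5% RPS.

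Fibroblast and collagen markers leaned the same way. None of the 17 had a positive log2 fold change, against 48.0% of all tested genes. At an unadjusted p under 0.05, 6 were lower (Dpt, Pdgfra, Gsn, Dcn, Fbln1 and Lum), against 4.5% of all tested genes. The median of the 17 markers was -0.20. Their summed CPM was 4152 to 5997 at 0% RPS and 3708 to 4900 at 5% RPS. Without mice RS10_719 and RS10_721, 0 of them were lower at that threshold, against 1.96% of all tested genes. Their part in the macrophage result was not tested.

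**Figure D4:**
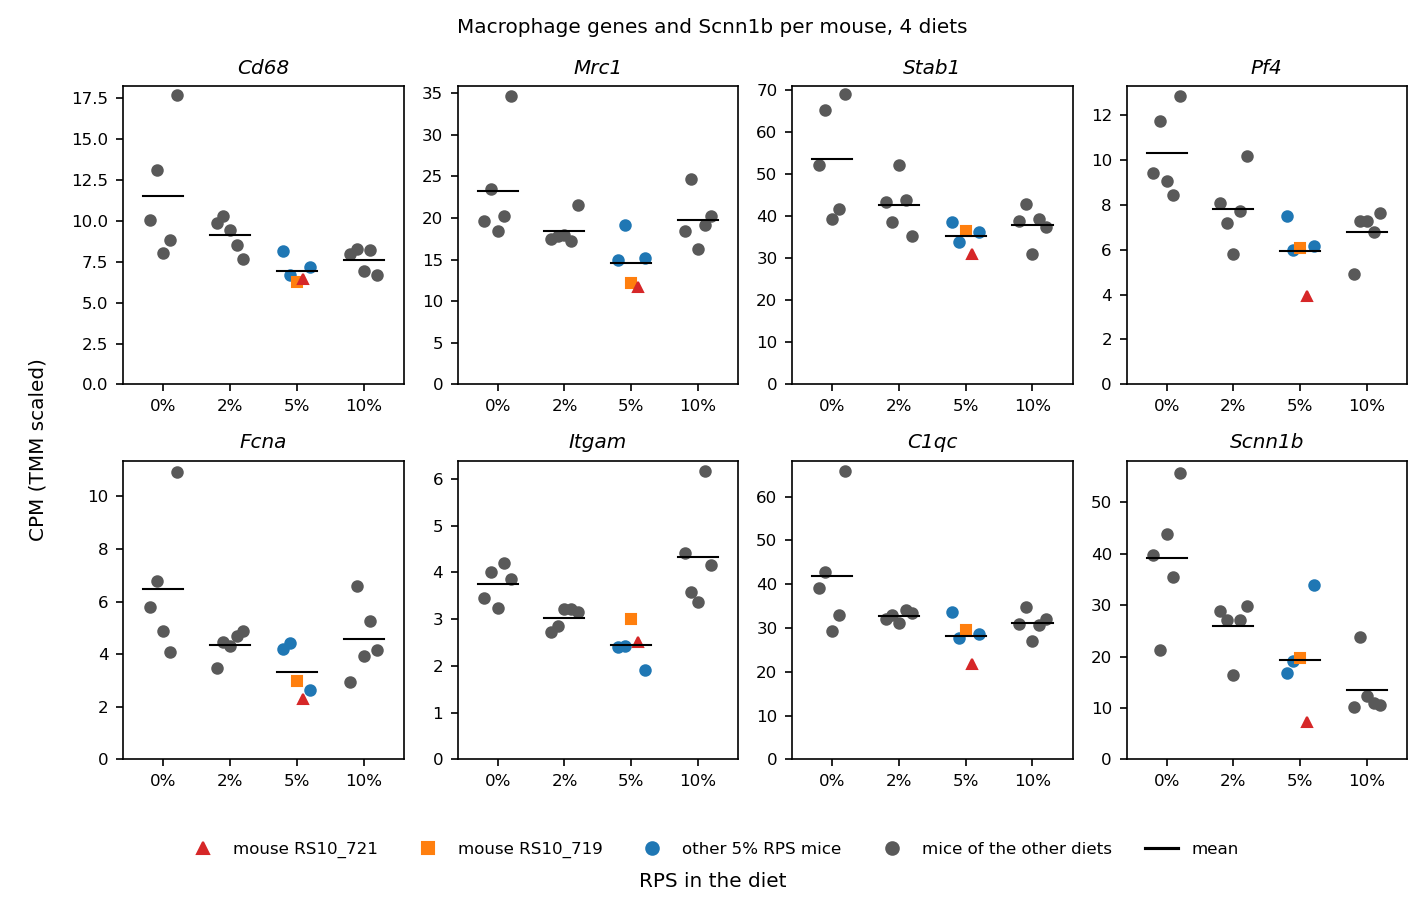
CPM of 7 macrophage genes and of the sodium channel subunit Scnn1b in each mouse of the 4 diets, with the mean as a line (y axes start at 0). Mean Cd68 was 11.6, 9.15, 6.96 and 7.63 CPM at 0, 2, 5 and 10% RPS, and mean Scnn1b was 39.2, 25.9, 19.3 and 13.6 CPM.

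The other 3 downregulated genes were Cyp2c55, described above, Xpnpep2, a membrane aminopeptidase, and the unnamed Gm15890. Xpnpep2 was at 5.07, 5.79, 3.70, 4.85 and 6.06 CPM at 0% RPS and 3.27, 3.51, 3.08, 2.34 and 3.84 CPM at 5% RPS, with mouse RS10_724 just above mouse RS10_704. Gm15890 ranged over 2.21 to 4.11 CPM in the controls and 1.49 to 2.20 CPM at 5% RPS, and mouse RS10_719 lay just below the lowest control. Its DESeq2 log2 fold change was -0.79 ± 0.21 (SE) (adjusted p = 0.0436). Neither Xpnpep2 nor Gm15890 was called without mouse RS10_721 or without mouse RS10_719. Of the 10 fits that left out 1 mouse, Xpnpep2 was called in 3 and Gm15890 in 2.

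Without mouse RS10_721 DESeq2 called 12 genes that it did not call with all mice. Of these, 8 were also called when another mouse was left out, and Apol11a, B3galt2, Rdh16 and Tifa were called without mouse RS10_721 alone. In 11 of them the level was higher at 5% RPS, and in all 11 mouse RS10_719 or mouse RS10_717 was highest. Nos2, the inducible nitric oxide synthase, was at 0.935, 1.46, 0.497, 1.61 and 1.66 CPM at 0% RPS and 4.06, 1.26, 22.9, 0.862 and 3.66 CPM at 5% RPS. Mice RS10_718 and RS10_721 were within the control range. The log2 fold change without mouse RS10_721 was 2.69 (DESeq2 adjusted p = 0.0498).

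The neutrophil chemokines Cxcl1 and Cxcl5 were likewise highest in mice RS10_719, RS10_717 and RS10_724 and within the control range in mice RS10_718 and RS10_721, with ranges over 0.452 to 0.822 CPM in the controls and 0.575 to 3.38 CPM at 5% RPS for Cxcl1 and over 1.13 to 2.32 CPM in the controls and 1.79 to 8.49 CPM at 5% RPS for Cxcl5. Tifa, an adaptor that carries bacterial sugar signals to NF-kB, ranged over 26.3 to 39.2 CPM in the controls and 29.7 to 130.3 CPM at 5% RPS, Cd38, an ectoenzyme that consumes NAD, over 124 to 183 CPM in the controls and 175 to 407 CPM at 5% RPS, and Gda, a guanine deaminase of the epithelium, over 47.4 to 74.7 CPM in the controls and 66.8 to 228 CPM at 5% RPS. Rdh16, a retinol dehydrogenase like Rdh9, ranged over 107 to 153 CPM in the controls and 119.7 to 283 CPM at 5% RPS. Dscc1, of the loader of the replication clamp, ranged over 1.33 to 2.58 CPM in the controls and 2.05 to 4.79 CPM at 5% RPS, and the other 3 were Apol11a, Gm47465 and 6720468P15Rik. B3galt2, a galactosyltransferase, was the gene called lower: it was at 2.78, 3.67, 2.02, 2.77 and 3.07 CPM at 0% RPS and 0.727, 1.33, 1.29, 4.92 and 1.52 CPM at 5% RPS, with mouse RS10_721 above all controls and the other 4 mice below them.

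The gene lists were then read for direction against the 4.69% of all tested genes that were higher and the 4.5% that were lower at an unadjusted p under 0.05, beginning with the transport of salt and water. Without mouse RS10_721 these shares were 3.86 and 3.66%, and without mice RS10_719 and RS10_721 they were 2.04 and 1.96%. With all mice, 48.0% of all tested genes had a positive log2 fold change, the share to set beside the positive members below. Of 54 genes listed, 49 were tested, 10 were higher and 3 lower at an unadjusted p under 0.05, and 1, Slc9a3, was called by DESeq2. Car4, a membrane carbonic anhydrase of surface colonocytes, was at 1166, 1043, 1348, 1137 and 886 CPM at 0% RPS and 1621, 1308, 1806, 1685 and 1239 CPM at 5% RPS, an edgeR log2 fold change of 0.46 ± 0.11 (SE). DESeq2 gave it an adjusted p of 0.0399, below the fold threshold. Mouse RS10_704 at 0% RPS overlapped the lower 5% RPS mice. Clcn2, a chloride channel, ranged over 159 to 208 CPM in the controls and 184 to 314 CPM at 5% RPS, and St14, the protease matriptase, over 286 to 351 CPM in the controls and 343 to 465 CPM at 5% RPS.

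The epithelial sodium channel pointed the other way. Scnn1b, its beta subunit, was at 39.7, 21.2, 43.8, 35.5 and 55.6 CPM at 0% RPS and 16.8, 19.1, 19.7, 7.30 and 33.9 CPM at 5% RPS. Scnn1g, its gamma subunit, was at 40.0, 22.4, 40.4, 40.3 and 75.2 CPM at 0% RPS and 14.3, 14.4, 27.9, 1.90 and 24.5 CPM at 5% RPS. Mouse RS10_721, highest for Slc9a3, was lowest for both subunits, and mouse RS10_724, lowest for Slc9a3 among the mice at 5% RPS, was highest for Scnn1b. The edgeR log2 fold changes were -1.02 ± 0.33 (SE) and -1.40 ± 0.55 (SE), and neither gene was called by either tool (edgeR adjusted p = 0.369 and 0.474).

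Antimicrobial and mucosal defence proteins were mostly higher. Of 35 tested of 50 listed, 25 had a positive log2 fold change, 12 were higher and 1 lower at an unadjusted p under 0.05, with a median of 0.24. Beside Retnlb and Ang4 these included the lectin Reg3g, at 0.283, 0.0316, 0.0621, 0.149 and 0.0301 CPM at 0% RPS and 0.694, 0.232, 0.744, 0.431 and 0.893 CPM at 5% RPS. At these levels each CPM value rests on few counts, and mouse RS10_718 overlapped the controls. Duoxa1, the maturation factor of dual oxidase 1, separated the groups at 0.475 to 0.683 CPM in the controls and 0.893 to 1.26 CPM at 5% RPS. Duox2, the dual oxidase that releases hydrogen peroxide at the epithelial surface, was at 83.0, 76.4, 75.8, 109.6 and 58.4 CPM at 0% RPS and 124, 93.5, 183, 147 and 118 CPM at 5% RPS, an edgeR log2 fold change of 0.72 ± 0.24 (SE). Without mouse RS10_721 the median was 0.18 with 14 members higher, and without mice RS10_719 and RS10_721 it was 0.12 with 8 higher.

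In the SOCS and STAT3 cytokine pathway 41 genes were tested, 7 were higher and 1 lower at that threshold, and the median was 0.05. Socs3 and Bcl3 were called by DESeq2. Fut2, which fucosylates the epithelial surface, ranged over 94.6 to 111 CPM in the controls and 114 to 222 CPM at 5% RPS, without overlap.

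Of 73 interferon-stimulated genes tested, 54 had a positive log2 fold change, 15 were higher and 2 lower at that threshold, and the median was 0.11. Called members were Trim15 and Zbp1. Samd9l, a restriction factor for viruses, was not called and ranged over 55.6 to 69.4 CPM in the controls and 61.2 to 94.1 CPM at 5% RPS. Irf1, a transcription factor of the interferon response, ranged over 113 to 148 CPM in the controls and 136 to 199.5 CPM at 5% RPS. Without mice RS10_719 and RS10_721 the list had 7 members higher and 2 lower, with a median of -0.00465, while the shares of all tested genes fell from 4.69 to 2.04% higher and from 4.5 to 1.96% lower.

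**Figure D5:**
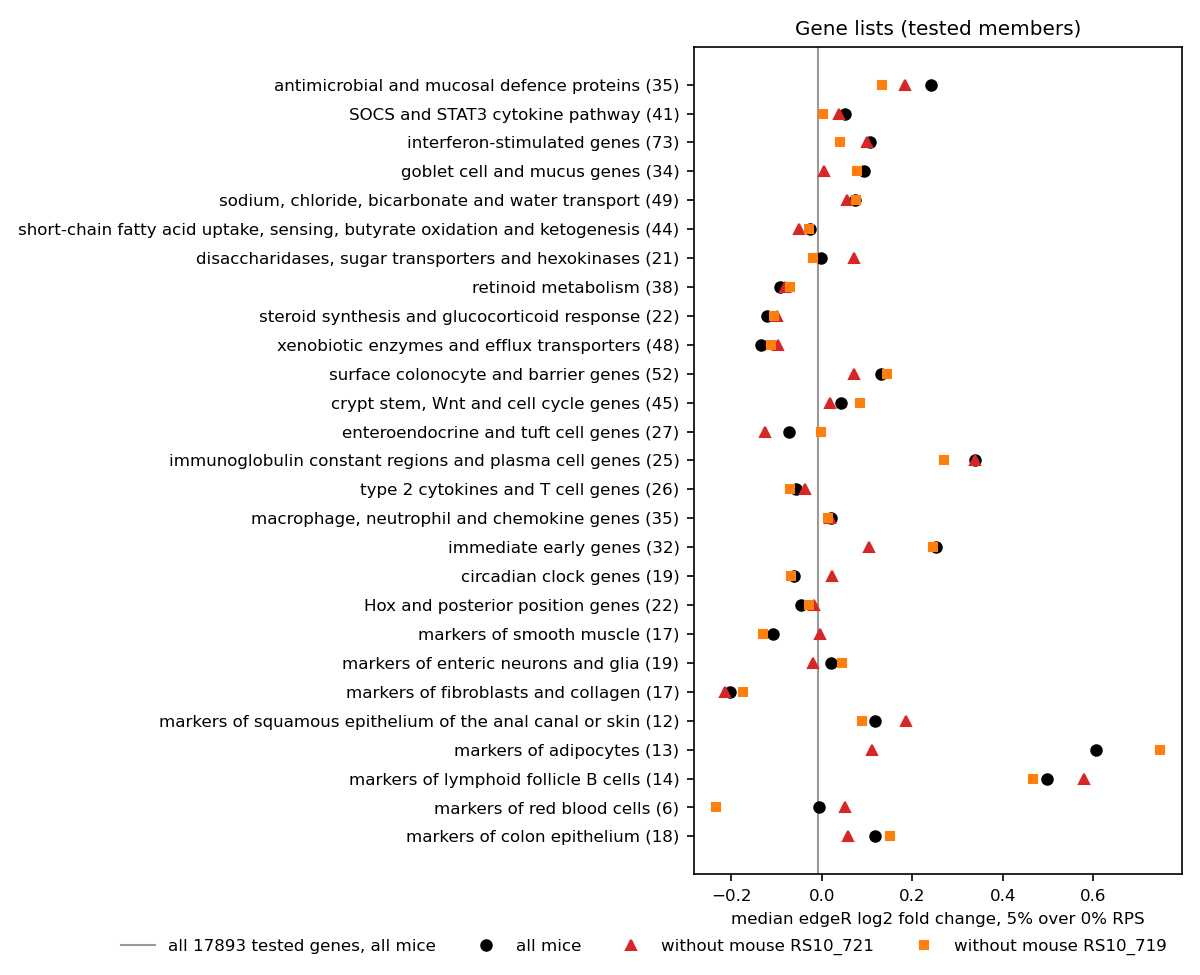
Median edgeR log2 fold change (5% over 0% RPS) of the tested members of each gene list with all mice (circles), without mouse RS10_721 (triangles) and without mouse RS10_719 (squares). The grey line is the median of all 17893 tested genes, and the number of tested members stands in brackets. The 2 pancreatic lists are left out. Adipocyte markers lie highest, at 0.60 with all mice and 0.11 without mouse RS10_721, and fibroblast markers lowest, at -0.20 with all mice.

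Xenobiotic enzymes and efflux transporters were mostly lower, with 10 members lower and 3 higher of 48 tested and a median of -0.14. The lower members were Cyp2c55, Cyp2c65, Cyp1a1, the carboxylesterases Ces2a and Ces2b, the metallothioneins Mt1 and Mt2, the receptor Nr1i2 (PXR) and the transporters Abcb1a and Abcg5. Controls RS10_707 and RS10_708 were high for Mt1, Mt2 and Ces2b, and controls RS10_703 and RS10_704 for Cyp1a1, with overlap in each. Mt1 was at 199 and 256 CPM in mice RS10_707 and RS10_708. It was at 63.0 to 92.8 CPM in the other controls and 51.0 to 82.1 CPM at 5% RPS. Ces2a separated the groups at 101 to 136 CPM in the controls and 80.0 to 100.1 CPM at 5% RPS. Abcg2, the efflux pump BCRP, was higher, at 49.5, 59.8, 62.8, 55.1 and 55.7 CPM at 0% RPS and 74.3, 85.9, 75.5, 99.3 and 59.5 CPM at 5% RPS. Its edgeR log2 fold change was 0.48 ± 0.11 (SE), below the fold threshold. Without mouse RS10_721 the list had 9 members lower and 2 higher, and without mice RS10_719 and RS10_721 4 and 1.

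Of the retinoid metabolism list 38 genes were tested, 3 were higher and 5 lower, with a median of -0.09. The lower members included Stra6l, Aldh1a3, Rarg and Bco2. Aldh1a3 ranged over 13.9 to 19.1 CPM in the controls and 7.83 to 14.8 CPM at 5% RPS. Without mouse RS10_721 the list had 4 members higher and 2 lower. With all mice the higher members were Rdh9, Rdh16 and Dhrs9, which are all dehydrogenases of the short-chain family. Dhrs9 was at 2.21, 3.26, 3.48, 1.01 and 0.301 CPM at 0% RPS and 6.87, 2.02, 9.91, 22.1 and 2.99 CPM at 5% RPS, with mouse RS10_721 highest.

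Surface colonocyte and barrier genes had 12 members higher and 2 lower of 52 tested, and a median of 0.13. Without mouse RS10_721 these counts were 5 and 1. Krt20, a keratin of surface cells, was at 622, 643, 873, 304 and 386 CPM at 0% RPS and 977, 774, 865, 1179.5 and 608 CPM at 5% RPS, with mouse RS10_721 highest. Cdx2, a transcription factor of intestinal identity, was at 11.4, 23.4, 11.0, 5.77 and 6.06 CPM at 0% RPS and 33.1, 25.9, 17.8, 84.6 and 16.7 CPM at 5% RPS, again highest in mouse RS10_721. Cdx2 was the 1 member of the 22 tested posterior position genes that was higher, and Hoxb13 the 1 that was lower. Hoxb13, a marker of the most distal gut, ranged over 446 to 579.7 CPM in the controls and 379 to 517 CPM at 5% RPS. Whether the position of the piece along the colon had a part in these levels was not tested.

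Crypt, Wnt and cell cycle genes had 10 members higher and 0 lower of 45 tested. The number higher was 10 without mouse RS10_721 and 7 without mice RS10_719 and RS10_721. Over the whole list 26 of 45 genes had a positive log2 fold change. The median was 0.04, and 0.02 without mouse RS10_721. The 10 higher members were Mcm2, Mcm3, Mcm4, Mcm5 and Mcm6 of the replicative helicase, Pcna, Hells, the cyclins Ccne1 and Ccnd1, and Prom1. Mcm2 was at 26.9, 27.3, 29.7, 15.8 and 14.6 CPM at 0% RPS and 45.0, 24.7, 38.7, 31.4 and 43.8 CPM at 5% RPS. Controls RS10_707 and RS10_708 were low and mice RS10_717, RS10_719 and RS10_724 high, and the groups overlapped through mouse RS10_718. The edgeR log2 fold changes were 0.68 ± 0.23 (SE) for Mcm2, 0.60 ± 0.20 (SE) for Mcm4 and 0.78 ± 0.27 (SE) for Ccne1 (edgeR adjusted p = 0.369, 0.366 and 0.37).

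Genes of short-chain fatty acid uptake, sensing and oxidation, the products of starch fermentation, had 2 members higher and 0 lower of 44 tested, with a median of -0.03. The higher members were the nuclear receptors Ppard, at 182 to 253 CPM in the controls and 229 to 366 CPM at 5% RPS, and Pparg, at 24.5 to 41.5 CPM in the controls and 25.8 to 54.0 CPM at 5% RPS. Goblet cell and mucus genes had 4 members higher and 2 lower of 34, with a median of 0.09. The higher members were Fut2, Muc3a, Guca2a and Clca4b. The lower ones were Tff3 and Agr3, with edgeR log2 fold changes of -0.33 and -0.83. Without mouse RS10_721 the list had 2 members higher and 2 lower, with a median of 0.005. Muc3a, a membrane mucin, was at 90.0, 103, 77.0, 60.1 and 61.8 CPM at 0% RPS and 113, 99.7, 95.7, 193 and 86.2 CPM at 5% RPS. Clca1, an abundant goblet cell protease, was at 1638, 2638, 1708, 1279 and 1399 CPM at 0% RPS and 2215, 2465, 2559.9, 3259 and 1229 CPM at 5% RPS, with overlap. Guca2a, the hormone guanylin, ranged over 99.1 to 326 CPM in the controls and 251 to 852 CPM at 5% RPS, with mouse RS10_721 highest.

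In the enteroendocrine and tuft cell list, Pyy, which codes for peptide YY, was higher at an unadjusted p under 0.05, while Ptgs1 and Pax6 were lower, so that the list of 27 tested genes had 1 member higher and 2 lower with a median of -0.07. Pyy was at 82.0, 68.8, 78.1, 55.6 and 69.8 CPM at 0% RPS and 107, 95.0, 91.5, 116 and 77.8 CPM at 5% RPS. Only mouse RS10_724 fell among the controls, and the edgeR log2 fold change was 0.46 ± 0.12 (SE). Of the steroid synthesis list, 4 of 22 genes had a positive log2 fold change, 2 members (Akr1b7 and Hsd3b3) were higher and 1 lower at that threshold. The lower one, Cyp11a1, the enzyme that starts steroid synthesis, was at 2.92, 0.380, 1.43, 9.25 and 9.97 CPM at 0% RPS and 0.363, 1.72, 0.879, 0.287 and 2.28 CPM at 5% RPS. Controls RS10_707 and RS10_708 were high and the groups overlapped.

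The sugar transporter and hexokinase list had 3 members higher and 2 lower of 21 tested. The higher ones included Hk2, the inducible hexokinase, at 139.8 to 202 CPM in the controls and 160.1 to 375 CPM at 5% RPS. The type 2 cytokine and T cell list had 1 member higher, Il1rl1, the receptor for IL-33, at 1.07 to 3.09 CPM in the controls and 1.66 to 10.6 CPM at 5% RPS. In the immediate early list 26 of 32 genes had a positive log2 fold change, with a median of 0.25 that was 0.10 without mouse RS10_721, and Ier5 was the member at an unadjusted p under 0.05. Circadian clock genes had 0 members higher and 0 lower. The clock output gene Dbp ranged over 9.52 to 114 CPM in the controls and 16.6 to 78.3 CPM at 5% RPS.

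Among markers of other cell types, lymphoid follicle B cell genes had a positive log2 fold change in 14 of 14, against 48.0% of all tested genes. None of them had an unadjusted p under 0.05. Their summed CPM ranged from 23.6 to 175 at 0% RPS and from 114 to 212 at 5% RPS. The lowest control was mouse RS10_708 at 23.6 CPM, far below the next, mouse RS10_704 at 85.8 CPM. Markers of smooth muscle, enteric neurons and glia, adipocytes and red blood cells had no member at an unadjusted p under 0.05, while squamous epithelium had 2 lower, islet cells had 1 higher (Ppy) and colon epithelium had 4 higher and 1 lower.

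Groups that do not overlap give a description that needs no model. All 5 mice at 5% RPS lay above all 5 controls for 83 genes (0.464%) and below for 103 (0.576%). Without mouse RS10_721 these numbers were 166 (0.928%) and 185 (1.03%). Labels assigned at random also separate genes. Complete separation of 5 mice from 5 has an exact two-sided permutation p of 0.00794 for any gene. Among 17893 genes many would therefore separate by chance, and with fewer mice more would. The numbers found were of that order, so separation of a single gene is not by itself evidence of a diet effect. Among separated genes at 1 CPM or more, the largest positive fold changes beside those of called genes were those of the immunoglobulin segments Ighv2-9-1, Igkv4-57 and Ighv3-6 and of Cpn1, a subunit of carboxypeptidase N. Ighv2-9-1 was at 0.142, 0.823, 0.217, 0.476 and 0.151 CPM at 0% RPS and 2.31, 3.78, 2.20, 0.970 and 3.35 CPM at 5% RPS, and reads of such segments can match several genes. Cpn1 was at 1.84, 1.55, 2.08, 1.96 and 1.99 CPM at 0% RPS and 3.07, 2.62, 2.20, 13.8 and 2.32 CPM at 5% RPS, so that mouse RS10_721 set its fold change. The largest negative ones, beside Cyp2c55, Pf4 and Gm15890, were those of Serpina9, 1700001K23Rik, Cdh26, Myh2 and Sbspon. Cdh26, a cadherin of epithelia, was at 4.02, 4.43, 4.88, 6.43 and 5.57 CPM at 0% RPS and 3.37, 3.48, 3.21, 1.58 and 3.26 CPM at 5% RPS. Serpina9, a protease inhibitor of germinal centre B cells, was at 4.42, 6.33, 4.38, 5.74 and 7.14 CPM at 0% RPS and 2.78, 4.04, 2.98, 3.05 and 3.08 CPM at 5% RPS.

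The 5% RPS mice were also set beside the neighbouring diets. In the same edgeR fit, 0 genes (0%) were called between 5 and 2% RPS and 0 between 10 and 5% RPS, with 1168 (6.53%) and 1041 (5.82%) genes at an unadjusted p under 0.05. DESeq2 was not run for these pairs. These comparisons share the 5% RPS mice with the main one. Mean Rdh9 was 2.00, 2.27, 5.24 and 6.45 CPM at 0, 2, 5 and 10% RPS, and mean Nrarp was 2.17, 2.42, 4.53 and 4.27 CPM. Mean Slc9a3 was 8.23, 13.3, 77.1 and 90.9 CPM. Bhlha15 was highest at 5% RPS, with means of 2.60, 2.34, 5.94 and 3.03 CPM, and Cyp2c55 was lowest there, with 70.9, 52.6, 30.2 and 51.5 CPM. The differences between 5% RPS and the diets next to it did not pass the threshold for either gene (edgeR adjusted p = 0.353 and 0.841 for Bhlha15, 0.705 and 0.841 for Cyp2c55).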

How the data were processed

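Gene counts were deposited by the authors as 1 table for the series: per the labels and the study's methods, single-end reads of stranded mRNA libraries were mapped to GRCm39 in CLC Genomics Workbench and counted per gene, with no normalization. The annotation release and the handling of multi-mapping reads are not given in the sources used here, so counts of immunoglobulin segments, angiogenins, Reg3 genes and mucins are uncertain. All 20 sample columns were mapped to mice, and 0 columns were left unused.

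edgeR 4.0.16 in R 4.3.3 was fitted once over the 4 diets (filterByExpr, TMM, robust quasi-likelihood test), and Benjamini-Hochberg adjustment ran over all genes tested. DESeq2 1.42.0 was run with its default filters on all genes. For both tools the thresholds of a call were 0.05 for the adjusted p and 1.5 for the fold change. CPM was computed with TMM scaling. The scripts were tested on simulated data. A count of 0 was bounded at 3 counts, which covers counting error only. Each p-value measures the spread between mice, with 1 library each.

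Named were all genes called by DESeq2 with all mice or without mouse RS10_721, the 8 separated genes with the largest positive and the 8 with the largest negative fold change at 1 CPM or more (with and without mouse RS10_721), up to 4 members of each list, and a few fixed genes such as Clca1, Dbp and the sodium channel subunits. The groups, members and lists were chosen with earlier results of these data known. Promoters were those of the RefSeq table for GRCm38.p6, and gene coordinates are on GRCm39. Alternatives covered scaling, filters, samples in the fit, the treatment label, the robust option, a clock covariate, library totals, limma-voom (limma 3.58.1) and leaving out each mouse. The fit without mice RS10_719 and RS10_721 together was chosen after seeing the data. A few results are not reported here.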

Additional observations from a re-analysis of the deposited data

Results flagged for a closer look

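A total of 244 groups of 5 mice (1 gene or sum in 1 diet) were examined for a highest or lowest mouse that stood apart from the other 4 by Dixon's criterion, and 32 met it. For unselected, normally distributed values chance alone gives about 1 in 20. The genes here were chosen from these same data and vary together, so the number that met the criterion cannot be judged against that share. Mouse RS10_721 accounted for 17 of them, mouse RS10_719 for 4, mice RS10_703 and RS10_704 for 3 each, mouse RS10_724 for 2, and mice RS10_701, RS10_708 and RS10_718 for 1 each.

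In mouse RS10_721 the pancreatic enzyme genes stood apart, with Pnlip at 1108 CPM, Cpb1 at 573 CPM, Pnliprp1 at 374 CPM and Ctrl at 296 CPM. The sum over all acinar markers was 10970 CPM and that of enteric neuron and glia markers 345 CPM, both highest, while the smooth muscle sum of 9270 CPM was lowest. Among defence and epithelial genes the same mouse was highest for Ang4 at 98.7 CPM, Retnlb at 23.4 CPM, Homer2 at 28.1 CPM, Muc3a at 193 CPM, Guca2a at 852 CPM and Cdx2 at 84.6 CPM. It was also highest for B3galt2 at 4.92 CPM, Cpn1 at 13.8 CPM and Gnmt at 1.73 CPM, and lowest for Cdh26 at 1.58 CPM.

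In mouse RS10_719, Nos2 at 22.9 CPM, Clca4b at 60.6 CPM and Ighg1 at 36.0 CPM were highest and Cyp2c55 at 17.3 CPM was lowest among the 5% RPS mice. Among the 5% RPS mice, mouse RS10_724 had the lowest total, 22.3 M counts, and the highest Hoxb13, 517 CPM. Mouse RS10_718 had the highest Serpina9 at 5% RPS, 4.04 CPM.

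Among the controls, mouse RS10_703 was highest for Bcl3 at 47.0 CPM, Gnmt at 2.79 CPM and Pax6 at 1.90 CPM. Mouse RS10_704 was highest for Clca4b at 8.88 CPM, Tmigd1 at 1.83 CPM and Gm47465 at 0.311 CPM. Mouse RS10_708 was highest for Pparg at 41.5 CPM and mouse RS10_701 for Tchh at 5.33 CPM.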

How the results depend on the processing

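The edgeR count of 0 called genes became 1 in the fit of the 0 and 5% RPS mice alone, lay between 0 and 1 when each mouse was left out (1 without mouse RS10_704) and was 29 with DESeq2. It stayed at 0 under RLE scaling, no filter, the treatment label, without the 3 mice whose labels disagree, the clock covariate, other library totals, limma-voom and no fold threshold. The 1644 genes at an unadjusted p under 0.05 were 1159 to 2095 when each mouse was left out, and without mice RS10_719 and RS10_721 the 839 higher became 371 and the 805 lower 356. The 29 DESeq2 calls were 5 with the treatment label, 6 without the 3 mice whose labels disagree, 0 without mice RS10_719 and RS10_721, 49 with no fold threshold and 7 to 105 when each mouse was left out. The 186 genes with separated groups were 496 without mice RS10_719 and RS10_721, and 245 to 612 when each mouse was left out, which leaves fewer mice to overlap. The edgeR log2 fold change of Pnlip was -0.39 (without mouse RS10_721) to 11.46 when each mouse was left out and -5.25 without mice RS10_719 and RS10_721, that of Cpb1 -0.22 (without mouse RS10_721) to 8.01 and -0.087, and that of Ctrl -0.31 without mice RS10_719 and RS10_721. That of Dbp was 0.019 with the clock covariate and -0.37 to 0.33 when each mouse was left out, turning positive without mouse RS10_707, RS10_708 or RS10_721. Where no value or construction is given, the cause was not tested. No paired analysis was possible because each mouse number belongs to 1 mouse. No log2 CPM values are reported, so another prior count was not run.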
